A study of Mus musculus with 6 samples.

Results

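The genes described here are the mitochondrial ribosomal proteins, chosen by name: symbols made of Mrpl (large subunit) or Mrps (small subunit), a number and at most 1 letter. The rule found 72 of the 6532 genes of the table, 45 named Mrpl and 27 named Mrps, and it used no measured value. Each of the 72 matched a RefSeq gene by accession under the same symbol. Mrpl32, Mrpl53, Mrps6 and Mrps36 were not analysed here. Mrps18a and Mrps30 are named for the small subunit but sit in the large subunit of the mammalian mitoribosome; they are counted below by their names.

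All libraries came from E14, an established mouse embryonic stem cell line, grown on gelatin with serum and LIF. In the siPKM cells, siRNAs against PKM1/2 at 20 nM for 36 h targeted both splice forms of pyruvate kinase M; siCtrl cells received control siRNA at the same dose and time. Both were passaged 16 h before harvest and held in cycloheximide at 100 µg/ml for 2 min, and each gave 1 library of RNA and 1 of ribosome-protected fragments (RPF, footprints cut with RNase A and T1). A further 2 libraries, replicates of FAST-iCLIP, mapped RNA bound by PKM2-FLAG-HA, a tagged PKM2, after UV light at 0.35 J per cm2; they had no control CLIP among the samples, and the labels do not say that they came from separate cultures. With 1 library of each kind per siRNA, no difference between siPKM and siCtrl has a replicate check or a test.

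The mitochondrial ribosome makes the small set of proteins encoded by mitochondrial DNA, which are core subunits of the respiratory chain. Its ribosomal RNAs come from mitochondrial DNA, but all its proteins are encoded in the nucleus, made by cytosolic ribosomes and imported. Many have a counterpart in bacterial ribosomes, and the others occur only in mitochondria. Pyruvate kinase M ends glycolysis by making pyruvate, which is a main fuel of mitochondria.

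The RNA and footprint libraries held 10349212 (siPKM RNA), 12111993 (siCtrl RNA), 12545485 (siPKM RPF) and 15175242 (siCtrl RPF) reads in the coding sequences (CDS), counted without the first 15 and last 5 codons. The median mitochondrial ribosomal gene had 669 reads in siPKM RNA, 833.5 in siCtrl RNA, 753 in siPKM RPF and 938 in siCtrl RPF, and no gene of the table had fewer than 151 in any of the 4. Pkm (Pkm2 in the table) stood at 1582 CPM (reads per 1000000 CDS reads of its library) in siPKM RNA and 5024 CPM in siCtrl RNA. Of 12 embryonic stem cell markers 11 had a row, with a summed level of 4914 CPM in siPKM RNA and 5013 CPM in siCtrl RNA. Single markers lay on both sides, with RNA log2 ratios, siPKM over siCtrl, from -0.38 (Lin28a) and -0.29 (Zfp42) over -0.04 (Pou5f1) to 0.55 (Esrrb) and 0.61 (Tcl1). The 3 trophoblast markers with a row, of 5, summed to 83.6 CPM in siPKM RNA and 77.5 CPM in siCtrl RNA, with Krt8 at 0.59, Krt18 at 0.37 and Tcfap2c at -0.60 in log2 ratio. The 2 neural markers with a row, of 3, summed to 63.8 CPM in siPKM RNA and 84.6 CPM in siCtrl RNA, with Nes at -0.54 and Pax6 at -0.15. Vim, the only 1 of 4 fibroblast markers with a row, stood at 304 CPM in siPKM RNA and 229 CPM in siCtrl RNA, and Cubn, the only 1 of 5 primitive endoderm markers, at 16.4 and 15.1 CPM. The part of these markers' differences in the results below was not tested. In these bulk libraries, fewer cells of a type and less RNA per cell cannot be told apart.

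Promoters are shown for 4 members at or near the ends of the RNA order and for 2 gene pairs that start from one shared stretch. Not shown are Mrpl44, lower in RNA ratio than Mrps26, and Mrps2, the highest of the small subunit. Neither has a match to the letters searched below in its 150 bases before the start. Sequences are from RefSeq on build GRCm38.p6, and 63 of the 72 genes had a window; the first window listed for a gene was used. Searched on both strands, from 250 bases before the start to 50 after it, were GCATGCGC, the core of the NRF1 site, CCGGAAG, a core of ETS family sites, and ATGGCGG, a core of the YY1 site. None of the 3 is contained in another. Factors of these families are known to act at many promoters of mitochondrial genes. Capitals mark a match within the bases printed. The first 4 sequences are the 150 bases before the start of Mrps23 (chr11:88204238-88204387, plus strand) and Mrpl11 (chr19:4962156-4962305, plus strand), with the lowest RNA ratios of their subunits, then Mrps26 (chr2:130563607-130563756, plus strand), second lowest of the small subunit, and Mrpl48 (chr7:100608302-100608451, minus strand), the highest of all. The last 2 are the bases between the divergent starts of Mrpl46 and Mrps11, the only pair in which both genes are members (chr7:78783090-78783130, plus strand, the direction of Mrps11), and of Mrps12 and the mitochondrial seryl-tRNA synthetase gene Sars2 (chr7:28741822-28741967, minus strand, the direction of Mrps12).
Mrps23: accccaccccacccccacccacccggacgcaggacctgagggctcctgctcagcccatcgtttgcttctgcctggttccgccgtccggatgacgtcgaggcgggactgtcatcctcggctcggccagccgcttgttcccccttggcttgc
Mrpl11: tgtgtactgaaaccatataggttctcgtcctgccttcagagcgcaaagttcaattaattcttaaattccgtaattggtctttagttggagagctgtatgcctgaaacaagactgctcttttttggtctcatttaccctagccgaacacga
Mrps26: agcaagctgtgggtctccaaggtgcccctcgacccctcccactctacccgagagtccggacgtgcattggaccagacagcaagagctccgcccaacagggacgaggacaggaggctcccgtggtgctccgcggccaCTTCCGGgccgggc
Mrpl48: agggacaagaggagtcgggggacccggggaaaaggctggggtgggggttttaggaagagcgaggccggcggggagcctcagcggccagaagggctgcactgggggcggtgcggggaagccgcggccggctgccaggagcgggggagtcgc
Mrpl46-Mrps11: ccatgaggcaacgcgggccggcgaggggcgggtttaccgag
Mrps12-Sars2: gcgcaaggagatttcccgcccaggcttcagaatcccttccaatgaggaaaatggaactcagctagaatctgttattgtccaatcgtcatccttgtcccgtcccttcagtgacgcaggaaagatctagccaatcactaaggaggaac

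The ETS core, written CTTCCGG on the other strand in Mrps26, was in the windows of 22 of the 63 genes (34.9%), against 23.3% of the windows of all 5320 genes that had one. The NRF1 core was in 7 windows (11.1%, against 7.31%) and the YY1 core in 12 (19%, against 11.3%). Of the YY1 matches in members, only that of Mrps11 lay before the start, and the others lay in the bases just after it. Small subunit genes held the ETS core in 11 of 24 windows (45.8%) and large subunit genes in 11 of 39 (28.2%). Of the members shown, 3 also had a match outside the bases printed: Mrps23 and Mrps12 to the ETS core just after the start, and Mrps11 to the YY1 core further upstream. A match is a run of letters, not a measured site. The median RNA log2 ratio, siPKM over siCtrl, was -0.12 for the 22 members with the ETS core and -0.14 for those without. For the NRF1 core it was 0.01 for the 7 members with it and -0.15 for the others, and for the YY1 core -0.05 for the 12 with it and -0.15 for the others. These differences were not tested.

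Messages of both subunits were slightly lower in siPKM cells than the median gene, and few stood far from it. The ratio is the log2 of siPKM over siCtrl reads, with 0.5 reads added, scaled by the sum of the library and centred on the median of all genes. A change that all genes share cannot be seen in it. Of the 45 Mrpl genes 31 lay below 0 and the median ratio was -0.15; of the 27 Mrps genes 23 lay below 0 and the median was -0.11. Over all genes the median is 0 by construction, with 50% on each side. Together the Mrpl genes took 0.366% of CDS reads in siPKM RNA (95% Clopper-Pearson interval 0.362 to 0.370) and 0.393% in siCtrl RNA (0.390 to 0.397), and the Mrps genes 0.202% (0.199 to 0.204) and 0.215% (0.213 to 0.218) in the same libraries. Intervals here and below cover counting error only.

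Only 1 of the 72 genes, Mrps23, was at least 1.5-fold lower in siPKM RNA, the fold used to call a difference, and 0 were at least 1.5-fold higher. Of all genes tested, 1.24% were called lower and 2.88% called higher. At a looser threshold of 0.32 on the log2 scale, 6 members (8.33%) were lower against 8.47% of all genes, and 0 were higher against 12.4% of all genes. The share of members that stood well below was thus near the background, and none stood correspondingly above. The ratios were also closer together than those of all genes: their SD was 0.17 (log2) against 0.28, with a counting error (root mean square) of 0.0795 and 0.0865.

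**Figure D1:**
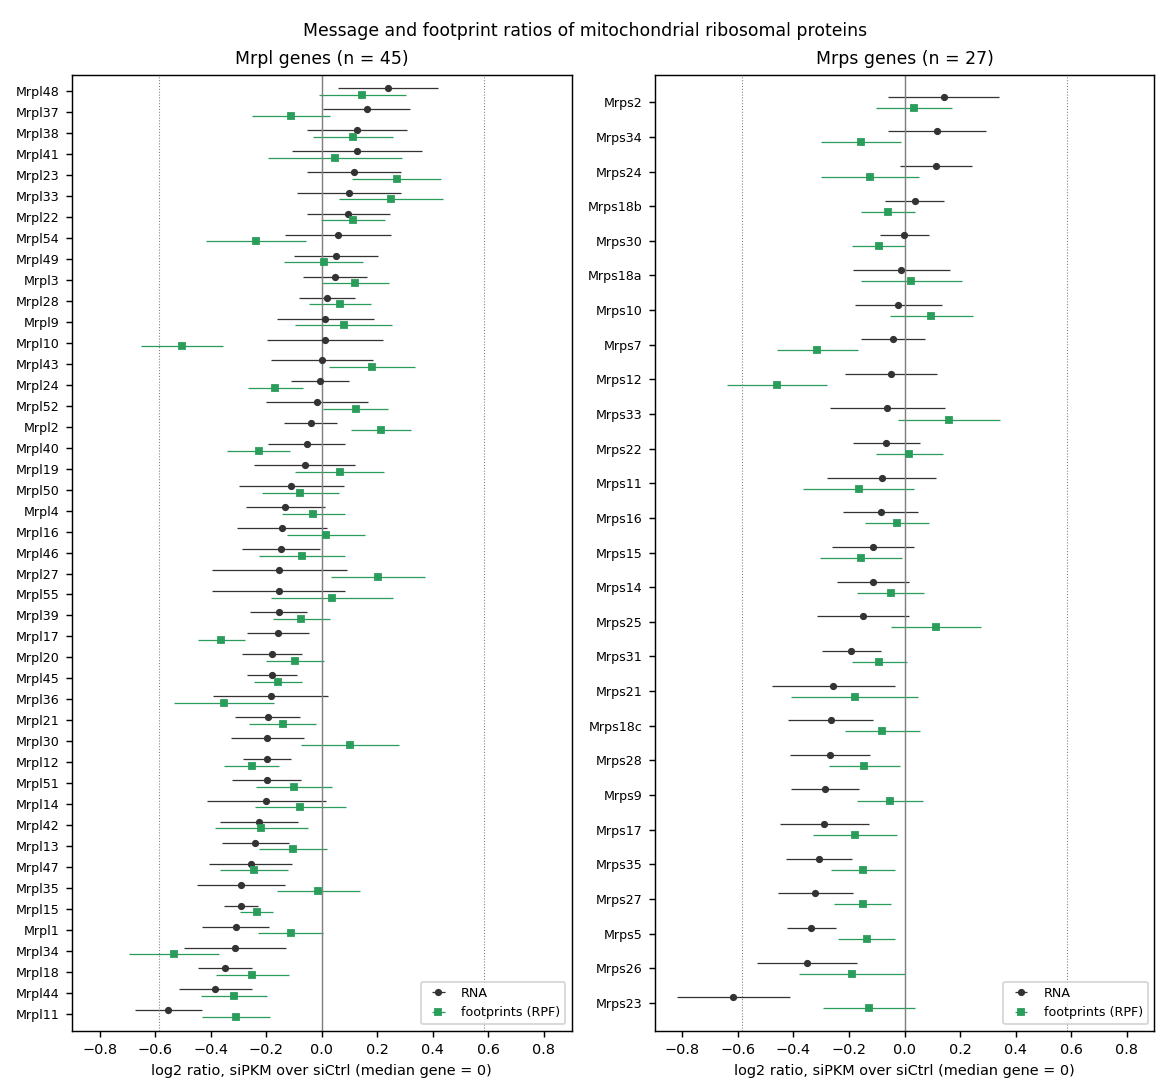
Log2 ratio of siPKM over siCtrl for each Mrpl gene (left) and Mrps gene (right), in RNA (black circles) and footprints (green squares); bars are 95% intervals from counting error and dotted lines mark 1.5-fold. Genes run from the highest RNA ratio at the top to the lowest, and Mrps23 at -0.62 is the only point past a dotted line.

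Mrps23 codes for a small subunit protein that bacterial ribosomes lack. It had 305 CDS reads (29.5 CPM) in siPKM RNA and 530 (43.8 CPM) in siCtrl RNA. Its RNA ratio fell by 0.62 on the log2 scale (interval -0.82 to -0.41). The 3' UTR of the same message did not follow: it had 486 reads in siPKM RNA and 539 in siCtrl RNA, a log2 ratio of 0.03 on the same scale. The 3' UTR therefore held 59.1% of the gene's reads in siPKM RNA and 47.4% in siCtrl RNA. With reads of the whole transcript the RNA log2 ratio was -0.29, and with the authors' library totals and no centring it was -0.57, so in neither was Mrps23 called. Its change of 3' UTR over CDS, 0.65 (interval 0.38 to 0.92), was the largest of the 66 members with at least 100 such reads, and 0.913% of all 5807 genes with as many were at or above it. Mrpl1 was close behind at 0.64 (0.37 to 0.92), and Mrpl54 lowest at -0.65 (-1.02 to -0.29).

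Among large subunit messages, Mrpl11 was lowest. Its bacterial counterpart is part of the factor-binding centre at the foot of the stalk, where translation factors dock. It had 888 CDS reads (85.8 CPM) in siPKM RNA and 1476 (121.9 CPM) in siCtrl RNA, a log2 ratio of -0.55 (-0.67 to -0.43), short of the 1.5-fold call. Whole-transcript reads, most of them from the CDS, gave -0.49. Its 3' UTR had 362 reads in siPKM RNA and 460 in siCtrl RNA, a log2 ratio of -0.17, so that 3' UTR over CDS was higher by 0.39 (0.16 to 0.62) in siPKM cells, the direction seen for Mrps23.
Mrpl44, which has an RNase III-like fold, followed at -0.38, from 75.9 CPM in siPKM RNA and 95.9 CPM in siCtrl RNA. Next were Mrpl18 at -0.35, Mrpl34 at -0.31 and Mrpl1 at -0.31, all 3 with bacterial counterparts. The counting intervals of these 4 overlapped.

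At the upper end of the large subunit stood Mrpl48, a protein of the central protuberance. Its message had 506 CDS reads (48.9 CPM) in siPKM RNA and 486 (40.1 CPM) in siCtrl RNA, a log2 ratio of 0.24 (0.06 to 0.42). The next were Mrpl37 at 0.16, Mrpl38 at 0.13, Mrpl41 at 0.13 (-0.05 with whole-transcript reads) and Mrpl23 at 0.12. Apart from Mrpl23, these genes code for proteins that bacterial ribosomes lack. Mrpl48 stood at percentile 81.1 of all genes, so none of the 5 was extreme among them. Mitochondria-specific Mrpl genes (17) had a median RNA ratio of -0.05 and those with a bacterial counterpart (28) one of -0.17, with 10 and 21 genes below 0.

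In the small subunit, Mrps26 followed Mrps23 at -0.35, from 40.2 CPM in siPKM RNA and 49.6 CPM in siCtrl RNA. Then came Mrps5 at -0.34, whose bacterial counterpart lines the channel where messages enter, Mrps27, a pentatricopeptide repeat protein, at -0.32, and Mrps35 at -0.31. Highest were Mrps2 at 0.14, Mrps34 at 0.12 and Mrps24 at 0.11, then Mrps18b at 0.04 (-0.05 with whole-transcript reads) and Mrps30 at -0.00. The intervals of these 5 all included 0. Mrps genes with a bacterial counterpart (15) had a median of -0.11 and the mitochondria-specific ones (10) one of -0.17, with 13 and 8 below 0.

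Coding length is not in the files, but a value linked to it is. The first 15 codons held 6.69% of the coding RNA reads of the median member and 2.58% of those of the median gene, as in shorter coding sequences. Across all 6532 genes, which are not independent replicates, this share had a Spearman correlation of -0.21 with the RNA ratio and 0.24 with the ratio of translation efficiency described below. Within the 72 members the same correlations were -0.03 and 0.05. Its part in the members' medians was not tested.

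Footprints report ribosomes on these messages, and they too were slightly lower in siPKM cells. Of the Mrpl genes 27 of 45 lay below 0, with a median log2 ratio of -0.08, and of the Mrps genes 21 of 27, with a median of -0.12. No member was at least 1.5-fold away, against 2.66% of all genes called higher and 1.53% called lower. Past the looser threshold of 0.32 (log2), 5 members (6.94%) were lower against 8.7% of all genes, and 0 were higher against 11.1%. The Mrpl genes took 0.329% of the footprints on coding sequences in siPKM cells (0.326 to 0.333) and 0.349% in siCtrl cells (0.346 to 0.352). For the Mrps genes the shares were 0.175% (0.172 to 0.177) and 0.184% (0.182 to 0.186).

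Lowest in footprints was Mrpl34, one of the smallest proteins of the bacterial large subunit set. It had 484 footprints (38.6 CPM) in siPKM cells and 834 (55.0 CPM) in siCtrl cells, a log2 ratio of -0.53 (-0.69 to -0.37). Mrpl10, which carries the stalk to which translation factors bind, had 584 (46.6 CPM) in siPKM cells and 988 (65.1 CPM) in siCtrl cells, a ratio of -0.50 (-0.65 to -0.36). Mrpl12, which binds Mrpl10 in the stalk, stood at -0.25, and Mrpl11 at its foot at -0.31. Neither was among the 5 lowest of the large subunit, and Mrpl12 was picked after its value was seen. Their RNA ratios differed: 0.01 for Mrpl10, -0.20 for Mrpl12 and -0.55 for Mrpl11. Mrpl17, whose bacterial counterpart lies near the exit of the nascent chain tunnel, stood at -0.36, Mrpl36 at -0.35 and Mrpl44 at -0.32.
The large subunit genes highest in footprints were Mrpl23, a tunnel exit protein, at 0.27 (0.11 to 0.43), Mrpl33 at 0.25, Mrpl2 at 0.21, Mrpl27 at 0.20 and Mrpl43 at 0.18. Mrpl23 had 628 footprints (50.1 CPM) in siPKM cells and 621 (40.9 CPM) in siCtrl cells. None reached 0.32.

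In the small subunit Mrps12 was lowest. Its protein sits at the decoding site, where the ribosome checks the match of tRNA and message. It had 391 footprints (31.2 CPM) in siPKM cells and 641 (42.2 CPM) in siCtrl cells, a log2 ratio of -0.46 (-0.64 to -0.28). Mrps7, of the head of the small subunit, followed at -0.31 and Mrps26 at -0.19. Mrps21 at -0.18 and Mrps17 at -0.18 completed the lowest 5. The highest were Mrps33 at 0.16, Mrps25 at 0.11, Mrps10 at 0.10, Mrps2 at 0.03 and Mrps18a at 0.02. Intervals of these 5 all included 0.

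**Figure D2:**
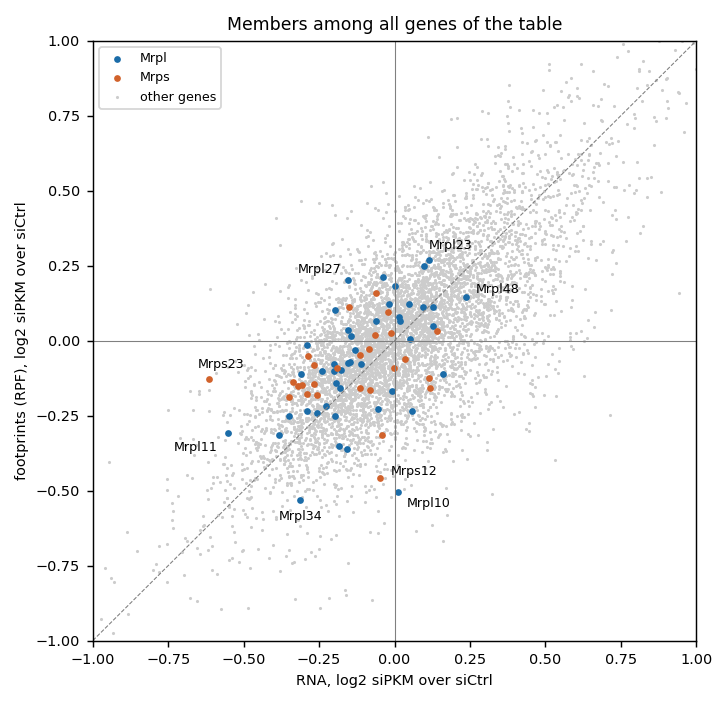
Log2 ratio of siPKM over siCtrl in footprints (vertical) against RNA (horizontal), for Mrpl (blue), Mrps (orange) and the other genes (grey); the dashed line marks equal ratios and 46 genes lie outside the axes. Most members lie in the lower left, and Mrpl10 and Mrps12 lie straight below the centre, low in footprints (-0.50 and -0.46) with RNA ratios of 0.01 and -0.05.

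Message and footprint ratios were both below 0 for 24 of 45 Mrpl genes and 18 of 27 Mrps genes, 58.3% of all members against 37.2% of all genes. Across the genes of each list, which share libraries, the Pearson correlation of RNA and footprint ratios was 0.55 for Mrpl, 0.19 for Mrps and 0.73 for all genes.

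Translation efficiency (TE) is the footprint ratio minus the RNA ratio, centred again on the median gene, and its change was compared next. Mitochondrial ribosomal genes lay slightly above the median gene: 32 of 45 Mrpl genes were above 0, with a median of 0.07, and 18 of 27 Mrps genes, with a median of 0.08. None was at least 1.5-fold away, against 0.184% of all genes called higher and 0.827% called lower. Past 0.32 on the log2 scale, 2 members (2.78%) were higher and 2 (2.78%) lower, against 3.8% and 6.26% of all genes. The SD of TE ratios was 0.18 over the members, and counting error alone came to 0.109. RNA reads enter TE with the opposite sign, so a low RNA count by itself gives a high TE.

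The 2 members past 0.32 in TE were Mrps23 at 0.49 (0.22 to 0.75) and Mrpl27 at 0.35 (0.06 to 0.65). For Mrps23 the difference lay in the CDS reads of the RNA described above: its footprints, 513 (40.9 CPM) in siPKM cells and 668 (44.0 CPM) in siCtrl cells, gave a log2 ratio of only -0.13. Mrpl27, a protein whose bacterial counterpart reaches the peptidyl transferase centre, had 242 RNA reads (23.4 CPM) in siPKM cells and 305 (25.2 CPM) in siCtrl cells, the fewest siPKM RNA reads of any member. It had 551 footprints (43.9 CPM) in siPKM cells and 571 (37.6 CPM) in siCtrl cells.
The next Mrpl genes were Mrpl30 at 0.29, Mrpl35 at 0.27, Mrpl2 at 0.25 and Mrpl11 at 0.24. After Mrps23 came Mrps25 at 0.26, Mrps9 at 0.23, Mrps33 at 0.22 and Mrps5 at 0.20.

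The members below -0.32 in TE were Mrpl10 at -0.52 (-0.78 to -0.26) and Mrps12 at -0.41 (-0.66 to -0.17). Their messages hardly differed: Mrpl10 had 347 RNA reads (33.5 CPM) in siPKM cells and 390 (32.2 CPM) in siCtrl cells. Mrps12 had 533 (51.5 CPM) in siPKM cells and 625 (51.6 CPM) in siCtrl cells. For both genes the difference thus lay in the footprints, the reverse of Mrps23.
Among other Mrpl genes, Mrpl54 stood at -0.30, Mrpl37 at -0.28, Mrpl34 at -0.22 and Mrpl17 at -0.21. In the small subunit the next were Mrps34 at -0.28, Mrps7 at -0.27, Mrps24 at -0.24 and Mrps2 at -0.11. Mrpl genes with a bacterial counterpart had a median TE ratio of 0.09 (22 of 28 above 0) and the mitochondria-specific ones one of 0.02 (10 of 17). In the small subunit the medians were 0.06 (9 of 15 above 0) and 0.16 (8 of 10).

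Footprints per message within one condition, relative to the median gene, differed more between members than between siPKM and siCtrl, with an SD over members of 0.46 (log2) in siPKM cells and 0.47 in siCtrl cells. Over all genes the SD was larger, 0.81 in siPKM cells and 0.82 in siCtrl cells. The members spanned -1.15 to 1.24 on the log2 scale in siPKM cells and -1.12 to 1.19 in siCtrl cells. Their medians were 0.05 in siPKM cells and 0.06 in siCtrl cells for Mrpl, and 0.06 and -0.09 for Mrps. Across the 72 genes the values of the 2 conditions had a Pearson correlation of 0.92, and across all genes one of 0.97. Counts are per CDS in both kinds of library, so coding length cancels in this ratio.
Mrpl10 stood at 0.65 in siPKM cells and at 1.19, the highest value, in siCtrl cells. Mrpl52 had 1.24 in siPKM cells and 1.13 in siCtrl cells, and Mrpl17 had 0.56 and 0.79. In the small subunit Mrps2 led with 0.90 in siPKM cells and 1.04 in siCtrl cells, before Mrps34 with 0.31 and 0.61 and Mrps27 with 0.74 and 0.60. At the lower end were Mrpl30 with -0.85 in siPKM cells and -1.12 in siCtrl cells, Mrpl18 with -0.92 and -0.99 and Mrpl42 with -0.64 and -0.62. Mrps24, the counterpart of a bacterial protein at the message entry, had -1.15 in siPKM cells and -0.89 in siCtrl cells. Mrps5 had -0.48 and -0.65, and Mrps7 had -0.95 and -0.65.

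**Figure D3:**
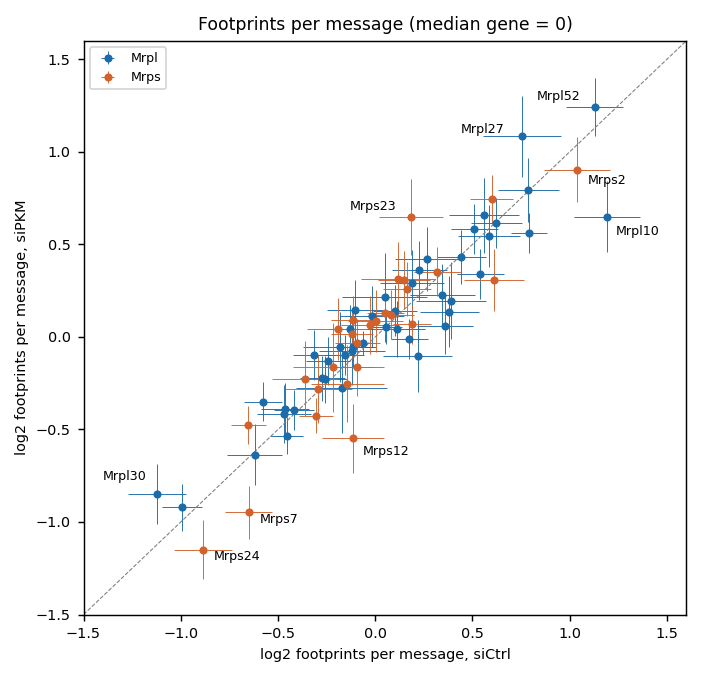
Footprints per message (log2, median gene at 0) in siPKM cells (vertical) and siCtrl cells (horizontal) for the 45 Mrpl and 27 Mrps genes, with 95% intervals from counting error; the dashed line marks equal values. The points follow the line from Mrpl30 and Mrps24 at the low end to Mrpl52 and Mrpl10 at the high end, with Mrps23 above it and Mrpl10 and Mrps12 below it.

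Where the footprints lay differed between members. In the median member 9.73% of footprints in siPKM cells and 10.5% in siCtrl cells were in the first 15 codons, against 4.24% and 4.32% in the median gene, a share that depends on coding length. Mrpl33 was highest, with 30.5% in siPKM cells and 33.4% in siCtrl cells, followed by Mrpl52 with 25.0% and 25.6%. Mrpl38 had 0 reads there in all 4 libraries although its CDS had 749 footprints in siPKM cells and 826 in siCtrl cells. Its 5' UTR had 0 reads in all 4 as well, RNA included, and the reason was not tested. Of all genes, 2.19% had 0 reads in the first 15 codons in siCtrl RPF and 2.92% in siCtrl RNA.

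Footprints ahead of the CDS were rare for most members. The median member had 0.312% of its footprints in the 5' UTR in siPKM cells and 0.322% in siCtrl cells, against 3.71% and 3.85% in the median gene. RNA reads were also fewer there. The median member had 1.36% of them in the 5' UTR in siPKM RNA and 1.44% in siCtrl RNA. In the median gene these shares were 2.57% and 2.67%. In 12 of the 72 genes (16.7%) the share reached 10% in siCtrl cells, and it did so in 24.8% of all genes. Mrps17 led, with 355 of 1030 footprints in siPKM cells (34.5%, Clopper-Pearson interval 31.6 to 37.5) and 561 of 1490 in siCtrl cells (37.7%, 35.2 to 40.2).
Mrpl41 had 25.9% in siPKM cells and 31.4% in siCtrl cells, and Mrps21 had 23.1% and 21.4%. The share differed beyond counting error in opposite directions for Mrpl55 and Mrpl30. Mrpl55 had 30.4% in siPKM cells (26.4 to 34.6) and 20.0% in siCtrl cells (16.7 to 23.7), and its log2 ratio of 5' UTR to CDS footprints was 0.73 higher in siPKM cells (0.31 to 1.15). Mrpl30 had 22.0% (19.2 to 25.1) and 28.0% (25.2 to 30.9), and the same ratio was -0.54 (-0.86 to -0.21). Mrpl3 at -0.37 (-0.71 to -0.02) and Mrpl34 at 0.56 (0.03 to 1.09) were the others whose interval left out 0. Over the 25 members with at least 40 such footprints the median was -0.02, and over 4020 genes with as many it was -0.06. Those 4020 genes ranged from -2.01 to 1.84. How many of their intervals left out 0 was not counted, so the members named have no background share beside them. The 5' UTR also held 30.9% of siCtrl RNA reads for Mrpl55, more than its footprint share in siCtrl cells. For Mrpl41 it held 26.1% of them, for Mrps17 21.6%, for Mrpl30 15.7% and for Mrps21 8.02%. In siPKM RNA the 5' UTR held 26.3% of reads for Mrpl55 and 18.3% for Mrpl41. It held 21.9% for Mrps17, 16.3% for Mrpl30 and 5.02% for Mrps21 in that library. The part of 5' UTR length or coverage in the footprint shares was not tested.

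**Figure D4:**
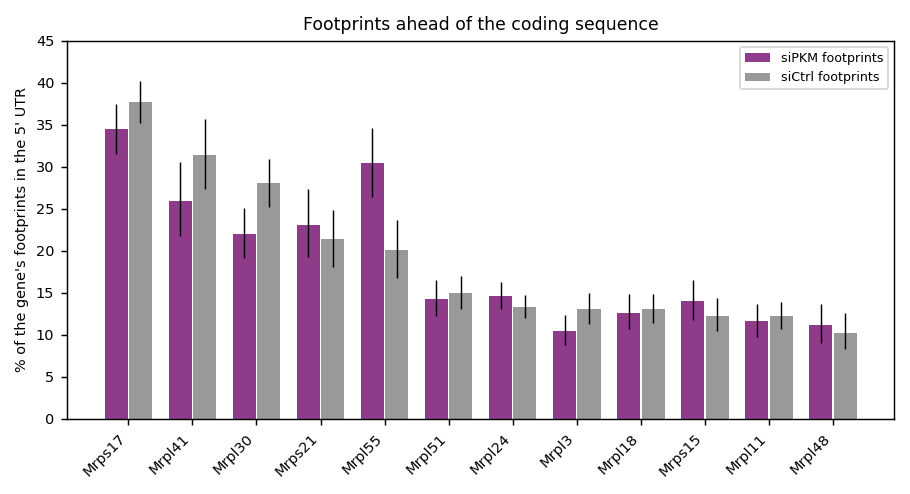
Share of each gene's footprints that lay in its 5' UTR, in siPKM cells (purple) and siCtrl cells (grey), for the 12 members with at least 10% in either; bars start at 0 and error bars are 95% Clopper-Pearson intervals. Mrps17 is highest in both, and Mrpl55 (higher in siPKM) and Mrpl30 (lower in siPKM) differ most between conditions.

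Crosslinks to tagged PKM2 were set against message levels in siCtrl cells. Most of these RNAs had fewer than those levels would give at the rate of the median gene. The CLIP cells had no RNA library among the samples. A difference in message level between them and siCtrl cells therefore cannot be told apart from one in crosslinks. In iCLIP, reverse transcription stops next to a crosslinked base, and the stops are counted per mature transcript. The 72 genes had 2132 of 677534 stops in replicate 1 (0.315%, 0.301 to 0.328) and 2246 of 670508 in replicate 2 (0.335%, 0.321 to 0.349). On the whole transcript they made up 0.583% of siCtrl RNA reads (0.579 to 0.586). The median log2 of stops over siCtrl RNA reads, both as CPM with 0.5 counts added, was -1.0 for Mrpl and -0.98 for Mrps, against 0.08 for all genes. Low medians were not particular to these genes: most other lists of mitochondrial translation, given below, had similar ones. Below 0 were 39 of 45 Mrpl and 25 of 27 Mrps genes, against 47.9% of all genes. At least 2-fold below their RNA were 36 of the 72 (50%), against 19.5% of all genes, and at least 2-fold above it were 2, against 27.5%. With no control CLIP, stops from background cannot be told apart from crosslinks to PKM2. The median member had 23.5 stops in replicate 1 and 27 in replicate 2, and the median gene 55 and 54.

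The 2 genes with more stops than their RNA share by that margin were Mrpl17 and Mrps2. Mrpl17 had 303 CPM in replicate 1 and 271 CPM in replicate 2 (mean 287 ± 22.0, SD, n = 2), and its log2 of stops over RNA was 1.24 ± 0.11. Mrps2 had 118 and 112 CPM (115 ± 4.40), and 1.10 ± 0.0548. Both replicates put these 2 first in their subunits. In siCtrl cells both also carried more footprints per message than the median gene, as given above. Whether these measures go together over all members was not tested. Among all genes they stood at percentiles 78.2 (Mrpl17) and 75.4 (Mrps2).
Next in the large subunit were Mrpl38 at 0.71, Mrpl52 at 0.34 ± 0.54 (-0.10 in replicate 1 alone), Mrpl37 at 0.25 and Mrpl10 at 0.22. In the small subunit Mrps25 followed at 0.34, then Mrps12 at -0.23, Mrps17 at -0.28 and Mrps24 at -0.37. By stops alone, which are not scaled by length, Mrpl15 was second with 215 ± 50.9 CPM, then Mrpl24 with 97.2 ± 3.86, Mrpl49 with 86.0 ± 22.4 and Mrpl50 with 80.1 ± 0.591. After Mrps2 came Mrps25 with 84.5 ± 5.67, Mrps17 with 69.8 ± 8.91, Mrps14 with 60.9 and Mrps30 with 56.4.

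At the other end, Mrpl48 had 0 stops in both replicates, which allows up to 4.43 CPM in replicate 1 and 4.47 CPM in replicate 2. Its siCtrl RNA stood at 37.4 CPM on the whole transcript. Its stops were thus at least 16.8-fold lower than that level, taking 3 counts over both replicates as the limit. Mrpl23 had 1 stop in replicate 1 and 0 in replicate 2, a pooled log2 ratio to RNA of -5.73 (exact Poisson interval -11.03 to -3.25). Mrps33 had 1 and 2, a ratio of -4.64 (-6.92 to -3.10). On the whole transcript Mrpl48 had 716, Mrpl23 755 and Mrps33 1066 reads in siCtrl RNA. The medians above do not depend on how these 3 are valued, since each lies far below its subunit's median.

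**Figure D5:**
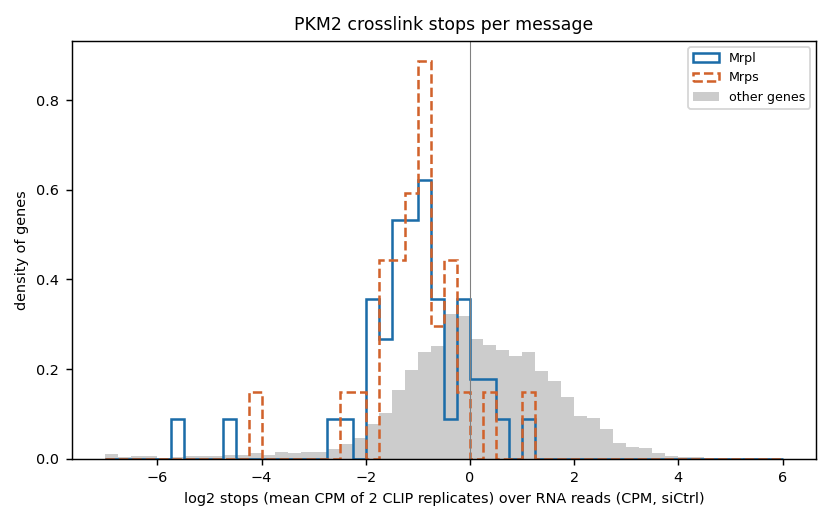
Distribution over genes of log2 PKM2 crosslink stops (mean CPM of both replicates) over siCtrl RNA reads (CPM, whole transcript), for Mrpl (blue line), Mrps (orange dashed line) and the other genes (grey, 15 genes beyond the axis gathered at its ends). The medians of both subunits lie near -1, and the isolated bars below -4 are Mrpl48, Mrpl23 and Mrps33 with 0 to 3 stops.

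Of the other genes of mitochondrial translation, none was at least 1.5-fold away in RNA, RPF or TE. As in the ribosomal proteins, RNA medians of each list lay below 0 and TE medians slightly above it. RPF medians lay below 0 except in translation factors. The RNA median of mitoribosomal proteins with another symbol was nearer 0 than those of Mrpl (-0.15) and Mrps (-0.11). Mitoribosomal proteins with another symbol (7) had medians of -0.02 in RNA, -0.09 in RPF and 0.02 in TE, with Chchd1 highest in TE at 0.09, Ptcd3, a pentatricopeptide repeat protein of the small subunit, at 0.08, and Aurkaip1 at -0.17 and Mrp63 (Mrpl57) at -0.12 lowest. Translation factors (9) had medians of -0.08, 0.02 and 0.06 in the same order. Of these the elongation factor homologue Guf1 stood at 0.21 in TE and the recycling factor Mrrf at 0.14, against the initiation factor Mtif2 at -0.21 and the membrane insertase Oxa1l at -0.01.
Assembly factors and rRNA-modifying enzymes (17) had medians of -0.09 in RNA, -0.08 in RPF and 0.05 in TE. The pseudouridine synthase Rpusd4 was highest in TE at 0.29, then Mterfd2 (Mterf4) at 0.24, and the GTPases Gtpbp5 (Mtg2) at -0.17 and Eral1 at -0.12 were lowest. Their messages carried fewer footprints than those of ribosomal proteins, with a median of -0.54 in siPKM cells and -0.46 in siCtrl cells. Genes of mitochondrial transcription and RNA (5) had medians of -0.15, -0.09 and 0.03, with Lrpprc at 0.08 and Tfam at 0.06 highest in TE and the RNA polymerase Polrmt at -0.25 and Tfb2m at -0.19 lowest. The median log2 of stops over siCtrl RNA was -1.01 for mitoribosomal proteins with another symbol and -0.91 for translation factors. It was -0.31 for assembly factors and rRNA-modifying enzymes, and -1.11 for mitochondrial transcription and RNA.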

How the data were processed

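The authors deposited 1 table for the 6 libraries, with raw read counts per transcript region and raw counts of stops of the reverse transcriptase on mature transcripts, per the file headers. It also holds log2 RPM and log2 translation efficiency computed by the authors, per the file headers, used here only as alternatives. Reads went through cutadapt and Bowtie2 against mm9, per the submitters' processing notes. Versions, counting tool, strand and the treatment of multi-mapping reads are not given in the sources used here, so counts of genes with pseudogenes or overlapping neighbours are uncertain. Of 6535 lines of the table, 3 with a repeated symbol were dropped, and a floor of 64 mean CDS reads removed 0 genes. Measurement columns not used numbered 6.

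Ratios were computed in Python 3.11.15 (numpy 2.4.6, pandas 2.3.3, scipy 1.17.1), and the calculation was tested on simulated data. Factors for other scalings came from edgeR 4.0.16 and DESeq2 1.42.0, with no test by either. CLIP replicates are given as mean ± SD (n = 2), a spread that may be technical. No molecular identifiers were used here to remove PCR copies, so intervals and limits of 3 counts cover counting error only. Alternatives were other scalings, floors, added reads, regions and folds, summed repeat symbols, each CLIP replicate alone and siPKM RNA under CLIP.

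The members and lists were chosen with earlier results of these data known. Named in each subunit were members past 1.5-fold, the 5 highest and lowest in RNA, RPF and TE, the 3 highest and lowest in footprints per message, and the 5 highest in CLIP and in CLIP over RNA. In the other lists these were the 2 highest and lowest in TE. Mrpl12 and the members named for read positions or few stops were chosen after their values were seen. Levels were not ranked between genes, because no coding lengths were used here.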

Additional observations from a re-analysis of the deposited data

How the results depend on the processing

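No paired analysis was possible because siPKM and siCtrl have a single RNA and RPF library each, and the CLIP replicates form 1 group. Of 138 recomputed medians and counts, 119 moved by less than their error or, for counts, by less than 1.5 times. The error was counting error or, for CLIP, the SD of the 2 replicates, so it leaves out differences between cultures. For a median of ratios it also treats members as independent. Of the 119, 12 came from leaving out the floor, which removed 0 genes, and could not move. A further 16 came from summing repeated symbols, none of them a member's, and could hardly move. The edgeR and DESeq2 factors gave 12 each. These factors shift all genes alike, by at most 0.00641 (log2), so those values could hardly move either. With the authors' library totals and no centring, which put the median RNA ratio of all genes at 0.04, RNA medians were -0.10 (Mrpl) and -0.0697 (Mrps), and 0 members were called lower. Whole-transcript RNA reads gave a median of -0.11 for Mrpl and 0 called lower. Past 0.32 (log2), 6 members were lower in RNA, 5 lower in RPF, and 2 higher and 2 lower in TE. With the whole CDS the RPF median of Mrpl was -0.11, and the median footprints per message of Mrps in siCtrl cells -0.0573. That median was 0.0642 in siPKM libraries, the other sign, and -0.0282 without Mrps18a and Mrps30, an alternative chosen after seeing the data. CLIP over RNA had medians of -0.74 (Mrpl) and -0.78 (Mrps) with 5 counts added, and -0.91 and -0.83 against siPKM RNA. Leaving out each CLIP replicate gave -1.14 to -1.04 for Mrpl and -1.15 to -1.01 for Mrps. Apart from the alternatives whose construction names what changed, the cause of these shifts was not tested. Of 648 values of single members, 624 moved by less than their error. Among these 624, 60 without the floor and 88 with summed symbols could not or could hardly move. Another 60 with edgeR factors and 60 with DESeq2 factors could hardly move either.

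One library per siRNA and kind is the main limit: a difference between siPKM and siCtrl cannot be told apart from one between any 2 cultures or libraries. Counting intervals understate the error.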

Other observations

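Of the 63 genes with a promoter window, 21 (33.3%) had a protein-coding RefSeq gene on the other strand that starts within 1000 bases and runs the other way. Of the 5320 genes of the table with a window, 14% had one. Other kinds of gene were not searched. The partner was in the table for 17 of the 21. Across these, which include Mrpl46 and Mrps11 from both sides and are not independent, the Pearson correlation of the RNA log2 ratios of member and partner was 0.27 (Spearman 0.28, n = 17), and 12 partners lay below 0. Mrpl46 stood at -0.15 and Mrps11, whose start is 42 bases away, at -0.08.

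Mrps12 and Sars2, which loads mitochondrial tRNA with serine, start 147 bases apart. In RNA their log2 ratios were -0.05 and 0.27, and in footprints they lay on opposite sides, at -0.46 for Mrps12 and 0.54 for Sars2, giving TE ratios of -0.41 and 0.26. Mrpl30 and Mitd1, 66 bases apart, had RNA ratios of -0.20 and -0.61, and Mrpl27 and Eme1, 48 bases apart, TE ratios of 0.35 and -0.21. None of these values has a replicate check, and the 3 pairs were chosen after their values were seen.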
